A study of Mus musculus with 40 samples.

Results

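The fat of an adipocyte is stored in a lipid droplet, and the proteins on its surface set how the droplet is coated, how large it grows and how fast it is broken down. The RNA of 8 genes for such proteins was followed in mouse subcutaneous white adipose tissue, the fat depot under the skin. The genes were chosen by symbol, with earlier results of these data known, and are Plin2, Plin3, Plin4, Plin5, Cidea, Cidec, Clstn3 and Hilpda. They are 8 of the 34843 symbols in the count table, and all 8 were among the 15807 genes with enough counts to be tested.

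The study compared 5 groups of mice with 8 libraries each. They were mice on a high-fat diet (HFD) given tirzepatide, mice on HFD given semaglutide, mice moved back to a normal diet (ND) after HFD, mice kept on HFD without a drug, and mice on ND. Semaglutide acts on the receptor of the gut hormone GLP-1, and tirzepatide acts on that receptor and on the receptor of the hormone GIP. Every group other than ND had thus been fed HFD, and the question was which genes an incretin drug or a change of diet brings back toward ND.
The labels give no strain, sex, age, dose or length of treatment. The series title speaks of a dietary intervention that follows incretin treatment, so whether the switched mice had also received a drug is not known from the labels. Samples are not said to be separate animals, and p-values therefore measure the spread between these samples.

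Perilipins are the main coat proteins of droplets. Plin1 guards the droplet of white adipocytes against lipases, Plin2 coats droplets in most cell types, Plin3 and Plin4 move from the cytosol onto newly formed droplets, and Plin5 is known from oxidative tissues, where it holds droplets close to mitochondria. Proteins of the CIDE family sit where 2 droplets touch and let lipid pass from the smaller to the larger one. Cidec serves the single large droplet of white adipocytes, and Cidea is best known from brown and beige fat. The Clstn3 locus encodes calsyntenin 3, a synaptic adhesion protein, and in mouse adipocytes also a shorter product, Clstn3b, which works against droplet enlargement by CIDE proteins. Hilpda inhibits Pnpla2 (ATGL), the enzyme that starts triglyceride breakdown, and is known as a target of hypoxia and of the fatty acid receptors of the PPAR family.

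Libraries were made with QuantSeq, which counts the 3′ ends of transcripts, and held 2115471 to 7445548 counts each with 19900 to 23774 genes detected. Levels are CPM, the count of a gene relative to its library's total, scaled by TMM, differences are log2 fold changes with their standard error (SE) from edgeR's quasi-likelihood fit of all 40 libraries, and a gene was said to have changed when its Benjamini-Hochberg adjusted p was under 0.05. The tissue expressed its defining markers: all 12 adipocyte markers were detected in every group, and Adipoq (adiponectin) averaged 2309 ± 399 CPM with tirzepatide, 2298 ± 603 with semaglutide, 2393 ± 465 after the switch, 2386 ± 357 on HFD and 2404 ± 628 on ND (SD, n = 8 each). Other markers of the list changed. On HFD against ND 1 was higher (Fabp4), 3 were lower (Cfd, Retn and Slc2a4) and 8 did not pass. Against HFD 2 were higher and 2 lower with tirzepatide, 2 higher and 0 lower with semaglutide, and 3 higher and 0 lower after the switch. Of all genes tested, 4.5% changed on HFD against ND, and against HFD 20.5%, 4.15% and 23.8% in that order of groups. The mean log2 CPM of the 12 markers was 10.15 ± 0.26 with tirzepatide, 10.09 ± 0.28 with semaglutide, 10.23 ± 0.26 after the switch, 9.93 ± 0.20 on HFD and 10.27 ± 0.32 on ND (SD, n = 8 each), and its part in the differences of the 8 genes was not tested.
Some libraries also held RNA of other tissues. Skeletal muscle markers were high in 12 libraries (tirzepatide 1, 2, 4, 5 and 7, switch 1, 3 and 6, HFD 4, ND 3, 6 and 8), and B cell markers in 4 (semaglutide 1, 3 and 8, ND 5). Switch libraries 3, 4 and 7 stood apart from all others on the main axis along which libraries of a group differed. The muscle-high libraries had a mean marker level above 3.5 log2 CPM, a cut that falls between libraries at 3.23 and 3.67. Without them tirzepatide keeps libraries 3, 6 and 8, and the switch keeps 2, 4, 5, 7 and 8, so those fits rest on fewer libraries. These sets of libraries were defined from the data, and calls that change without them are given beside the result.

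On HFD against ND, 5 of the 8 genes changed, where 4.5% of all genes tested changed. All 5 were higher, as were 2.83% of all genes: Hilpda, Clstn3, Plin5, Cidec and Plin2, with folds of 4.04, 3.28, 3.16, 2.16 and 1.67. Plin3, Plin4 and Cidea did not pass. Against HFD, tirzepatide changed 4 of the 8 (20.5% of all genes), all lower (10.7%), namely Hilpda, Clstn3, Cidec and Plin2. Semaglutide changed 5 (4.15% of all genes), all lower (2.63%), which were Clstn3, Hilpda, Plin5, Plin2 and Cidec. After the switch 5 changed (23.8% of all genes): Hilpda, Clstn3, Cidec and Plin2 were lower (10.9%) and Cidea was higher (12.8%). These comparisons share the same 8 HFD libraries, and their values are given side by side. Because the 8 genes were chosen with earlier results of these data known, setting them beside all genes is no test of the set. The median log2 fold change of the 8 genes was 0.92 on HFD against ND, −0.54 with tirzepatide, −1.04 with semaglutide and −0.44 after the switch, each against HFD, while that of all genes lay between −0.04 and 0.05. In bulk tissue, fewer cells that express a gene and less RNA of it per cell cannot be told apart.

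**Figure D1:**
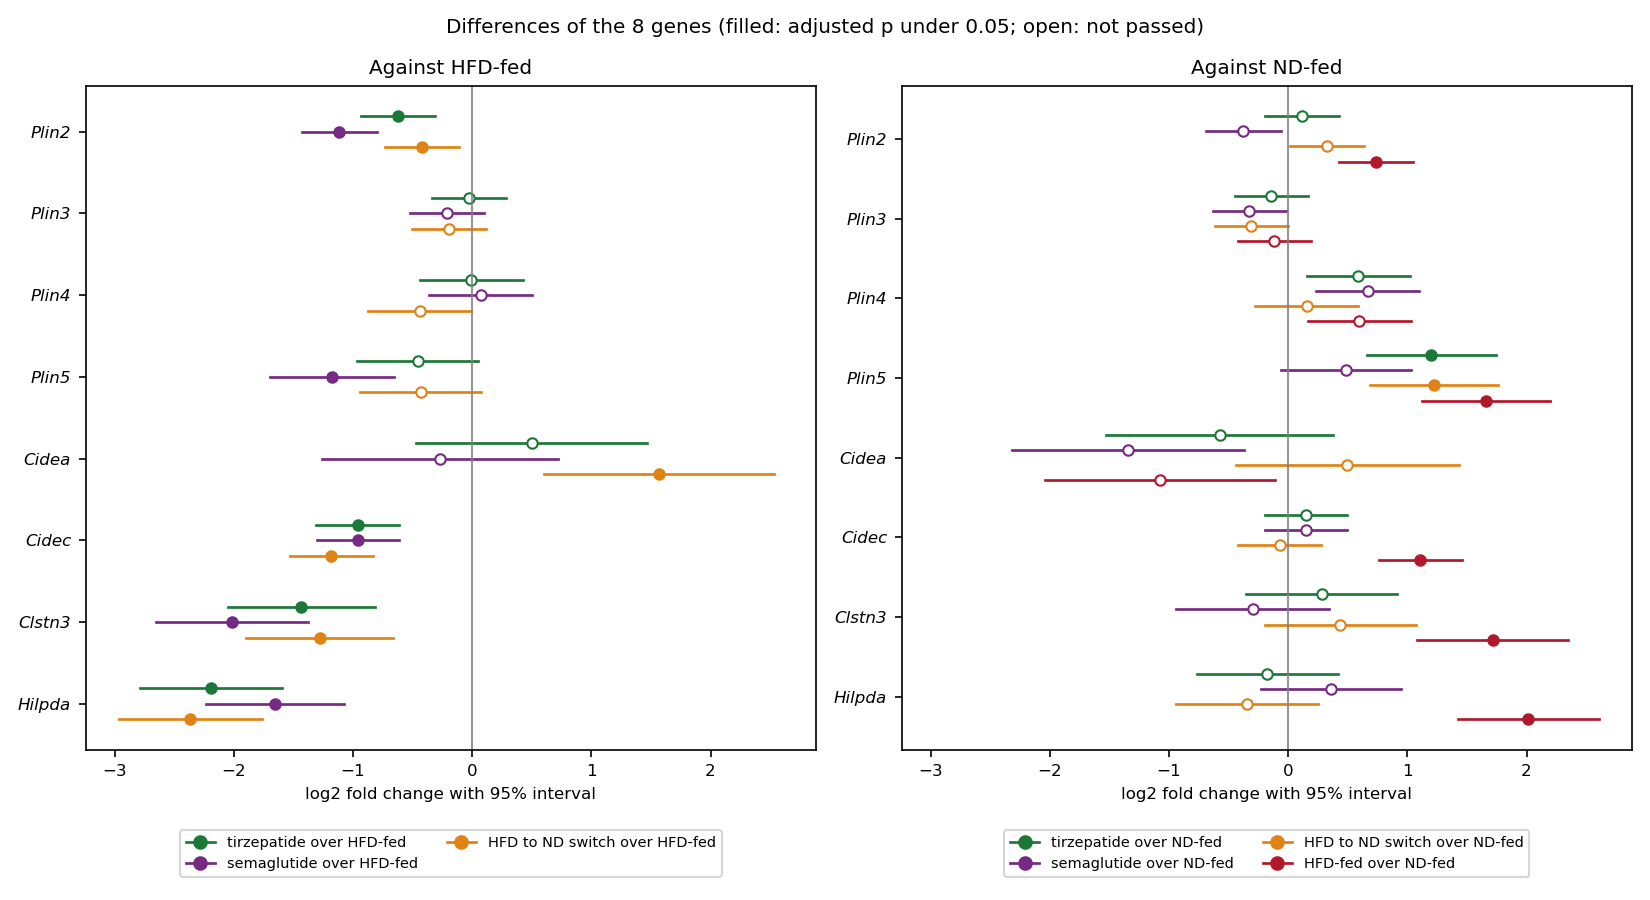
Log2 fold changes of the 8 genes (x axis) with 95% intervals, the treated groups over HFD on the left and all groups over ND on the right; filled points have an edgeR adjusted p under 0.05. Hilpda, Clstn3 and Cidec lie left of 0 against HFD in all 3 treated groups, and the HFD points of Plin2, Plin5, Cidec, Clstn3 and Hilpda lie right of 0 against ND.

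Cidec, the droplet fusion protein of white adipocytes, separated the HFD group from every other group. Its lowest, median and highest levels were 852, 1199 and 1273 CPM with tirzepatide, 647, 1154 and 1686 with semaglutide, 689, 952 and 1298 after the switch, 1820.3, 2216 and 3105 on HFD, and 572, 1089 and 1418 on ND. No library of another group reached the lowest HFD library. Levels without overlap were seen in 3.62%, 1.19% and 2.54% of all genes when tirzepatide, semaglutide and the switch were set against HFD, and in 1.52% for HFD against ND.
The log2 fold change was −0.96 ± 0.17 with tirzepatide (SE, edgeR adjusted p = 8e-05), −0.96 ± 0.17 with semaglutide (adjusted p = 0.000352) and −1.18 ± 0.17 after the switch (adjusted p = 3.28e-06), each against HFD, and 1.11 ± 0.17 on HFD against ND (adjusted p = 2.53e-05). The 4 groups other than HFD did not differ from each other past the threshold: against ND the differences were 0.15 ± 0.17 with tirzepatide, 0.15 ± 0.17 with semaglutide and −0.07 ± 0.17 after the switch, with 95% intervals that together run from −0.42 to 0.50. Tested against a change of 1.5-fold, Cidec still passed on HFD against ND and after the switch, and missed the threshold with tirzepatide (adjusted p = 0.111) and semaglutide (adjusted p = 0.330).

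Clstn3, whose adipocyte product opposes CIDE proteins, was higher on HFD and lower in the treated groups, with larger folds than Cidec. It had 7.41, 18.4 and 33.7 CPM (lowest, median, highest) with tirzepatide, 5.62, 12.3 and 21.9 with semaglutide, 9.67, 17.8 and 42.3 after the switch, 28.6, 57.9 and 81.8 on HFD and 9.15, 13.4 and 32.0 on ND. All semaglutide libraries lay below all HFD libraries, while single tirzepatide, switch and ND libraries reached into the HFD range. Log2 fold changes against HFD were −1.43 ± 0.31 with tirzepatide (edgeR adjusted p = 0.000914), −2.01 ± 0.32 with semaglutide (adjusted p = 0.000114) and −1.28 ± 0.31 after the switch (adjusted p = 0.00229, or 0.0869 when tested against a change of 1.5-fold). On HFD against ND it was 1.71 ± 0.31 (adjusted p = 0.000336).
The counts carry one limit: calsyntenin 3 and Clstn3b share their last exons, so 3′ counts under this symbol do not separate the 2 products. After the switch Clstn3 did not differ from ND in all libraries (0.44 ± 0.31, adjusted p = 0.362) but did without the muscle-high libraries (1.04, adjusted p = 0.0428).

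Cidea, the family member of brown and beige fat, did not follow Cidec. It had 8.38, 20.8 and 55.9 CPM (lowest, median, highest) with tirzepatide, 7.22, 10.05 and 32.1 with semaglutide, 21.2, 44.9 and 107 after the switch, 7.20, 15.3 and 41.7 on HFD, and 5.64, 24.7 and 109 on ND. The ND libraries spread over the whole range seen in the study (coefficient of variation 96.8%), and only the switch group lay as a whole above the HFD median.
After the switch Cidea was 1.57 ± 0.48 log2 units above HFD (edgeR adjusted p = 0.0153). With semaglutide the log2 fold change against the switch was −1.84 ± 0.48 (adjusted p = 0.0106). Without the 3 switch libraries that stood apart these values were 1.47 and −1.74 and missed the threshold (adjusted p = 0.0816 and 0.0799), as they did in all libraries when tested against a change of 1.5-fold (adjusted p = 0.136 and 0.130). On HFD against ND the value was −1.07 ± 0.48 (adjusted p = 0.227), with tirzepatide against HFD 0.50 ± 0.48 (adjusted p = 0.496) and with semaglutide against HFD −0.27 ± 0.49 (adjusted p = 0.818). Cideb, the liver and gut member of the family, had 2 counts in all 40 libraries together.
Markers of brown and beige fat moved in part with Cidea. They are set beside the 23.8% of all genes tested that changed after the switch against HFD. After the switch against HFD, 3 of the 9 tested markers were higher and 2 lower: the log2 fold changes were 2.64 ± 0.52 for Tmem26, 1.21 ± 0.39 for Cox8b and 0.68 ± 0.26 for Ebf2, and −2.29 ± 0.50 for Dio2 and −1.34 ± 0.47 for Otop1 (edgeR adjusted p from 0.000277 to 0.04999). The summed level of the 13 markers found in the table ran from 138 to 323 CPM after the switch and from 95.5 to 192 CPM on HFD. Its medians were 172 and 127.5 CPM, where Cox8b alone had medians of 94.8 and 38.5 CPM, so the sum rests largely on that gene. Ucp1, the defining thermogenic gene, was among the 4 tested markers that did not pass. It lay near the floor, with medians of 2.71 CPM after the switch and 0.16 CPM on HFD. It had no count in 1 of 8 switch libraries and in 4 of 8 HFD libraries. The part of brown or beige cells in the Cidea difference was not tested.

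Hilpda, the inhibitor of triglyceride breakdown, had the largest folds of the 8 genes on HFD and with tirzepatide and the switch. Its lowest, median and highest levels were 8.16, 22.3 and 31.1 CPM with tirzepatide, 19.7, 31.1 and 45.2 with semaglutide, 11.9, 18.7 and 28.8 after the switch, 31.3, 90.5 and 169 on HFD, and 12.3, 23.4 and 41.4 on ND. HFD libraries spread widely, yet none of the tirzepatide or switch libraries reached the lowest of them. Some semaglutide and ND libraries did.
Log2 fold changes against HFD were −2.19 ± 0.30 with tirzepatide (edgeR adjusted p = 1.42e-06), −1.65 ± 0.29 with semaglutide (adjusted p = 0.000304) and −2.36 ± 0.30 after the switch (adjusted p = 5.78e-07), and 2.01 ± 0.29 on HFD against ND (adjusted p = 1.21e-05). These 4 calls also held against a null of 1.5-fold and in each of the other 10 alternatives. Semaglutide lay 0.71 ± 0.29 log2 units above the switch, with all 8 libraries above the switch median, and did not pass (adjusted p = 0.0976). Pnpla2, the lipase that Hilpda inhibits, averaged 2382 ± 902 CPM with tirzepatide, 2161 ± 585 with semaglutide, 2011 ± 493 after the switch, 2178 ± 414 on HFD and 2284 ± 461 on ND, and passed in no comparison against HFD or ND.

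**Figure D2:**
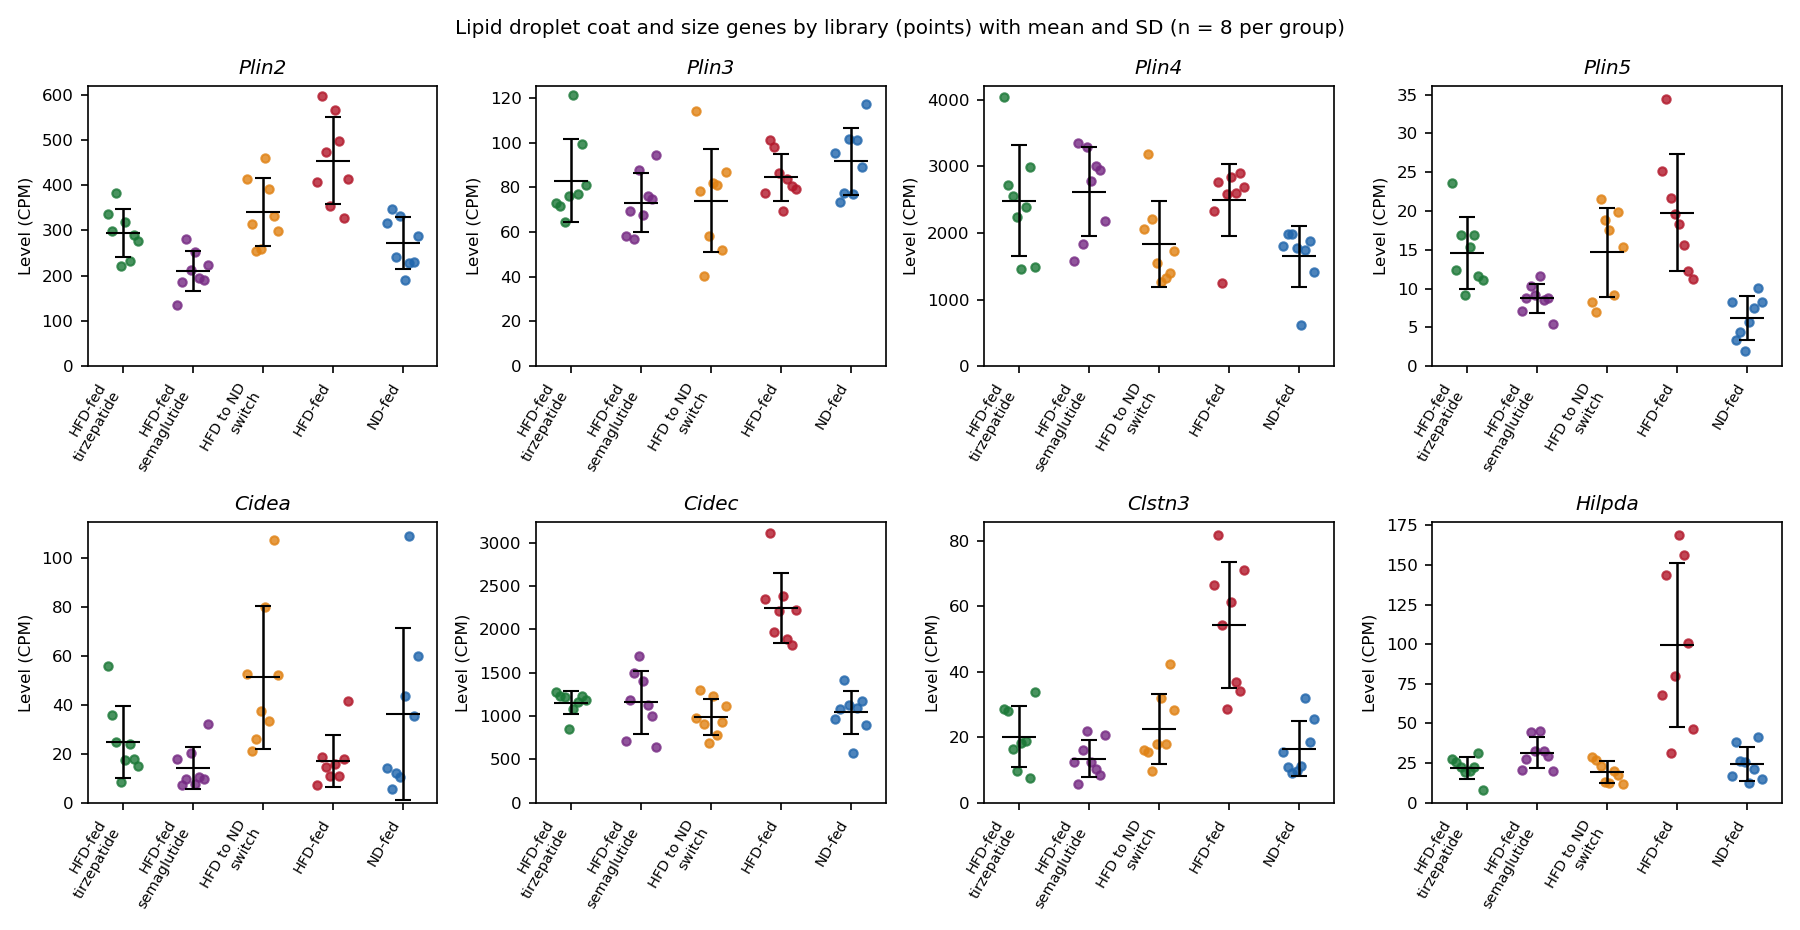
CPM of the 8 genes (y axes start at 0) in each of the 40 libraries (points), with the mean and SD of each group of 8 (bars). For Cidec the HFD libraries, from 1820.3 CPM, sit above all others, and for Hilpda and Clstn3 the HFD means of 99.4 and 54.3 CPM are the highest of the 5 groups.

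Cidec and Hilpda lie on the same chromosome in mouse genome build mm10 (GENCODE M21), Hilpda on the forward strand at chr6:29272488-29275446 and Cidec on the reverse strand at chr6:113424634-113435760. Clstn3 is on that chromosome too, on the reverse strand at chr6:124430759-124464794. Since Cidec and Hilpda were both higher on HFD and lower in the other groups, the 250 bases before the first listed start of each are given, 5′ to 3′ on the gene's strand, from RefSeq (GRCm38.p6, which is mm10). The Hilpda stretch is chr6:29272238-29272487 and the Cidec stretch is chr6:113435761-113436010.
Hilpda: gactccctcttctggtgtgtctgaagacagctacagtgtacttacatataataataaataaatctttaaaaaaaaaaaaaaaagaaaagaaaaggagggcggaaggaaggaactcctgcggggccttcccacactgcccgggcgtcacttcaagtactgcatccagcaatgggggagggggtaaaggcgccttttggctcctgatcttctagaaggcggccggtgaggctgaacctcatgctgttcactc
Cidec: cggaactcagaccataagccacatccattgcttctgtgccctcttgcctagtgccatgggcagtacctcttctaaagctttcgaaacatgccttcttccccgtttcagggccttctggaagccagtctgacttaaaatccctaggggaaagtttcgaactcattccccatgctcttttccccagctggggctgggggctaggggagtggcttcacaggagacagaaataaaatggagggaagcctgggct
Neither stretch holds, on either strand, the direct repeat that PPAR receptors bind (DR1, a pair of AGGTCA in the same direction with 1 base between), nor its looser form with AGGNCA in place of AGGTCA, which includes the strict one. Of the 8 genes 7 had an entry, with 11 listed starts in all, and 0 of these 11 windows held either form, against 0.0335% and 0.338% of 32851 mouse promoter windows of 250 bases. The core letters ACGTG of the hypoxia response element were in 1 of the 11 windows, against 16.6% of all windows. That match, in capitals, lies 43 bases before the second listed Hilpda start. The 30 bases around it are chr6:29272571-29272600 on the forward strand:
Hilpda second start: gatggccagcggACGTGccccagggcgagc
TATAAA was in 0 of the 11 windows, against 12.4% of all. A window without a match says only that these letters are not in these 250 bases.

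Plin2, the widely expressed coat protein, had 221, 295 and 382 CPM (lowest, median, highest) with tirzepatide, 135, 204 and 282 with semaglutide, 254, 323 and 460.0 after the switch, 326, 443 and 596 on HFD, and 191, 265 and 348 on ND. The semaglutide libraries all lay below the HFD libraries, and those of the other groups overlapped with HFD. Log2 fold changes against HFD were −0.63 ± 0.15 with tirzepatide (edgeR adjusted p = 0.0031), −1.11 ± 0.16 with semaglutide (adjusted p = 1.72e-05) and −0.42 ± 0.15 after the switch (adjusted p = 0.0425). On HFD against ND it was 0.74 ± 0.15 (adjusted p = 0.00148). Tested against a change of 1.5-fold, Plin2 passed with semaglutide against HFD and missed the threshold on HFD against ND (adjusted p = 1), with tirzepatide (adjusted p = 0.837) and after the switch (adjusted p = 0.99999).
In order of mean level the groups ran HFD (454), switch (340.2), tirzepatide (295), ND (272) and semaglutide (209.7 CPM). Of the neighbours in that order, HFD and the switch differed past the threshold, tirzepatide and the switch did not (−0.21 ± 0.15), nor did tirzepatide and ND (0.12 ± 0.15) or semaglutide and ND (−0.37 ± 0.15, adjusted p = 0.213). The switch call against HFD was weak: it was lost without any one of HFD libraries 2, 3, 5 and 6 or switch libraries 2, 3, 4, 7 and 8 (adjusted p 0.0209 to 0.111 over the 16 libraries left out in turn), and was −0.28 (adjusted p = 0.350) without the 3 switch libraries that stood apart. Without the muscle-high libraries the switch and tirzepatide values were −0.51 (adjusted p = 0.0685) and −0.67 (adjusted p = 0.0754). Both lie farther from 0 than with all libraries, in a fit with fewer libraries of each group.
Macrophages also carry Plin2. Of 18 macrophage markers 3 were higher on HFD than on ND and 15 did not pass, and their summed level ran from 4886 to 10984 CPM on HFD and from 4145 to 8182 CPM on ND, with no marker at 0 in either group. The 3 were Atp6v0d2, Trem2 and Itgax, with log2 fold changes of 2.28 ± 0.53, 1.75 ± 0.45 and 1.41 ± 0.30. The list shares Lpl with the adipocyte list, and a summed level weighs abundant genes most. As a mean log2 CPM the 18 markers had 5.90 ± 0.13 on HFD and 5.45 ± 0.31 on ND (SD, n = 8 each). Of all genes tested, 4.5% changed on HFD against ND. Against HFD 0 of the 18 were higher and 1 lower with tirzepatide, 0 changed with semaglutide, and 2 were higher and 3 lower after the switch. The shares of all genes were 20.5%, 4.15% and 23.8% in that order. The mean log2 CPM was 5.74 ± 0.42 with tirzepatide, 5.58 ± 0.37 with semaglutide and 5.59 ± 0.49 after the switch. The part of macrophages in the Plin2 differences was not tested.

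Plin5, the coat protein of oxidative tissues, had 9.12, 13.9 and 23.6 CPM (lowest, median, highest) with tirzepatide, 5.43, 8.83 and 11.6 with semaglutide, 6.91, 16.5 and 21.5 after the switch, 11.2, 18.95 and 34.5 on HFD, and 1.93, 6.63 and 10.1 on ND. Every HFD library lay above every ND library, and the groups in between overlapped with one or both. The level on HFD was 1.66 ± 0.27 log2 units above ND (edgeR adjusted p = 3.74e-05).
With semaglutide the log2 fold change against HFD was −1.18 ± 0.26 (adjusted p = 0.00359, or 0.282 when tested against a change of 1.5-fold), whereas the values of −0.46 ± 0.25 with tirzepatide and −0.43 ± 0.25 after the switch missed the threshold (adjusted p = 0.199 and 0.215). Compared directly, tirzepatide lay 0.72 ± 0.26 above semaglutide (adjusted p = 0.066), with all 8 libraries above the semaglutide median, and this difference passed with DESeq2 (adjusted p = 0.0468) and in a fit of these 2 groups alone (adjusted p = 0.0386).
Plin5 was also higher than ND in treated mice: 1.202 ± 0.27 with tirzepatide (adjusted p = 0.00283) and 1.23 ± 0.27 after the switch (adjusted p = 0.00239), where 10.1% and 14.8% of all genes tested differed from ND and 4.3% and 7.97% were higher. With semaglutide the value was 0.48 ± 0.27 (adjusted p = 0.413). Without the muscle-high libraries the tirzepatide value was 1.31 and did not pass (adjusted p = 0.0685), and without the 3 switch libraries that stood apart the switch value was 0.86 (adjusted p = 0.137). With all libraries, neither value passed against a change of 1.5-fold (adjusted p = 0.196 and 0.193). Skeletal muscle also expresses Plin5. The 14 muscle markers summed to 23.5 to 3256 CPM with tirzepatide, 17.2 to 438 with semaglutide and 45.7 to 4008 after the switch. On HFD the sum ran from 38.3 to 1075 CPM and on ND from 92.7 to 4612. Medians were 1042 CPM with tirzepatide, 52.8 with semaglutide, 170 after the switch, 89.0 on HFD and 223 on ND. Mb and Myh7 had counts only with tirzepatide. The part of muscle in the Plin5 values was not tested. Within groups Plin5 and the mean muscle level had a correlation that did not pass (Pearson's r = 0.09, rho = 0.08, adjusted permutation p = 0.798).

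Plin4, a coat protein of new droplets in adipocytes, ran from 1457 through a median of 2472 to 4034 CPM with tirzepatide, from 1580.1 through 2866 to 3354 with semaglutide, from 1263 through 1636 to 3186.5 after the switch, from 1244 through 2645 to 2900.4 on HFD, and from 613 through 1792 to 1989 on ND. The groups overlapped throughout. It did not change in any comparison: the value on HFD against ND was 0.60 ± 0.22 (edgeR adjusted p = 0.112), with 7 of 8 HFD libraries above the ND median, and limma-voom with quality weights called it (adjusted p = 0.0187). Against ND the values were 0.59 ± 0.22 with tirzepatide (adjusted p = 0.0698) and 0.67 ± 0.22 with semaglutide (adjusted p = 0.0877), and both passed with DESeq2 (adjusted p = 0.044 and 0.0462) and limma-voom (adjusted p = 0.0375 and 0.00517). Against HFD they were −0.01 ± 0.21 with tirzepatide (95% interval −0.44 to 0.43), 0.07 ± 0.21 with semaglutide (−0.36 to 0.50) and −0.44 ± 0.22 after the switch (adjusted p = 0.130). limma-voom called the switch value against HFD (−0.59, adjusted p = 0.0124). For semaglutide against the switch Plin4 had 0.51 ± 0.22 (adjusted p = 0.101), which passed with limma-voom (0.73, adjusted p = 0.00618) and without the B cell-high libraries (0.74, adjusted p = 0.0182), as did semaglutide against ND without them (0.76, adjusted p = 0.0381). Single libraries moved Plin4 past the threshold: without tirzepatide 5 or 8 its value against ND was 0.67 (adjusted p = 0.0413 and 0.0389), without semaglutide 1 it was 0.75 (adjusted p = 0.0453), and without switch 2 the switch value against HFD was −0.60 (adjusted p = 0.0309) and the semaglutide value against the switch 0.67 (adjusted p = 0.0239).
Plin3 averaged 83 ± 18.5 CPM with tirzepatide, 73.2 ± 13.1 with semaglutide, 74.1 ± 23.2 after the switch, 84.6 ± 10.5 on HFD and 91.7 ± 15.2 on ND (SD, n = 8 each). Its 95% interval on HFD against ND was −0.42 to 0.19 log2 units, and it passed in no comparison with all libraries. Without switch library 1 it was lower after the switch than on ND (−0.42, adjusted p = 0.0425, against −0.31 ± 0.15 with it).
Plin3, Plin4 and Plin5 lie on the reverse strand of chromosome 17, with Plin4 at chr17:56100591-56109803 and Plin5 at chr17:56111601-56117596, only 1797 bases apart, and Plin3 at chr17:56277476-56292873. Plin2 is on the reverse strand at chr4:86648386-86670060. Within groups the levels of the neighbours Plin4 and Plin5 had a correlation that did not pass (r = −0.07, rho = −0.10, adjusted permutation p = 0.819). The 3′ end of Plin4 overlaps by 17 bases with that of Hdgfl2 on the other strand, whose means ran from 39.7 to 47.5 CPM over the 5 groups. Cidea overlaps by 500 bases with the gene B430212C06Rik, also on the opposite strand, whose level is not reported here. Whether reads were counted by strand is not given in the sources used here.

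Against ND, 1 of the 8 genes passed with edgeR with tirzepatide and after the switch, Plin5 both times, as given above. That is 12.5% of the 8, near the 10.1% and 14.8% of all genes tested. With semaglutide 0 of the 8 passed with edgeR, where 2.64% of all genes did. There 4 genes had an unadjusted p under 0.05 (Plin2, Plin3, Plin4 and Cidea), and DESeq2 and limma-voom called 1 each (Plin4). The log2 fold changes of Cidec, Clstn3 and Hilpda against ND lay between −0.35 and 0.44 in the 3 treated groups, against 1.11, 1.71 and 2.01 on HFD. Their 95% intervals reached from −0.94 to 0.95 for Hilpda and from −0.94 to 1.07 for Clstn3, so differences of up to about that size lie within the error of these 2 genes.

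Between the 2 drugs 1 of the 8 genes differed in all libraries, Plin2, higher with tirzepatide than with semaglutide by 0.49 ± 0.15 log2 units (edgeR adjusted p = 0.0354), where 10% of all genes tested differed and 4.11% were higher. All 8 tirzepatide libraries lay above the semaglutide median. The call was lost without any one of semaglutide libraries 1, 2, 6 and 7 or tirzepatide libraries 1, 2 and 3 (adjusted p 0.0205 to 0.0859 over the 16 libraries left out in turn) and without the muscle-high libraries (0.51, adjusted p = 0.231). Cidec was level between the drugs (0.00 ± 0.17, interval −0.35 to 0.34), while Hilpda at −0.54 ± 0.29 and Clstn3 at 0.58 ± 0.32 did not pass and have intervals that still hold differences of over 1 log2 unit. The labels give no doses, so these values compare the groups as treated.
Tirzepatide and the switch did not differ in any of the 8 genes with edgeR (0.399% of all genes did), DESeq2 or limma-voom, and 2 had an unadjusted p under 0.05 (Plin4 at 0.43 ± 0.22 and Cidea at −1.07 ± 0.47). Semaglutide lay below the switch in 3 genes, where 13.3% of all genes differed and 7% were lower: Cidea as given above, Plin2 by −0.70 ± 0.15 (adjusted p = 0.00235) and Plin5 by −0.74 ± 0.26 (adjusted p = 0.0481). The Plin5 call was lost without any one of semaglutide libraries 1, 2, 4, 6, 7 and 8 or switch libraries 3, 4, 5, 7 and 8 (values −0.85 to −0.64, adjusted p 0.018 to 0.12). It was also lost in 8 of 11 alternatives, among them without the muscle-high libraries (−0.84, adjusted p = 0.0648), without the B cell-high libraries (−0.64, adjusted p = 0.175) and without the 3 switch libraries that stood apart (−0.38, adjusted p = 0.548). Clstn3, at −0.74 ± 0.32 against the switch (adjusted p = 0.112), passed without the muscle-high libraries (−1.02, adjusted p = 0.0202), and Hilpda passed with only the groups compared (0.70, adjusted p = 0.0488).

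Libraries of one group still varied in these genes, and some genes varied together. Over the 40 libraries with group means taken off, 5 of the 28 pairs of the 8 genes had a correlation with an adjusted p under 0.05, all positive (permutation within groups, two-sided, 100000 draws, Benjamini-Hochberg over 60 relations). Cidea and Clstn3 varied together (Pearson's r = 0.669, Spearman's rho = 0.653, adjusted permutation p = 0.0002, r = 0.641 without the 2 libraries farthest from the median in Cidea), with r from 0.352 to 0.874 in the 5 groups taken singly. Plin4 and Hilpda did so too (r = 0.633, rho = 0.607, adjusted permutation p = 0.0002, 0.5257 without the 2 farthest). Plin4 and Cidec had r = 0.524 and rho = 0.488 (adjusted permutation p = 0.0156, 0.401 without the 2 farthest), and Cidec and Hilpda r = 0.431 and rho = 0.435 (adjusted permutation p = 0.0225, 0.337 without the 2 farthest). Plin2 and Cidec had r = 0.468 (adjusted permutation p = 0.0265, 0.317 without the 2 farthest), and missed the threshold by rank (rho = 0.389, adjusted permutation p = 0.111).

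**Figure D3:**
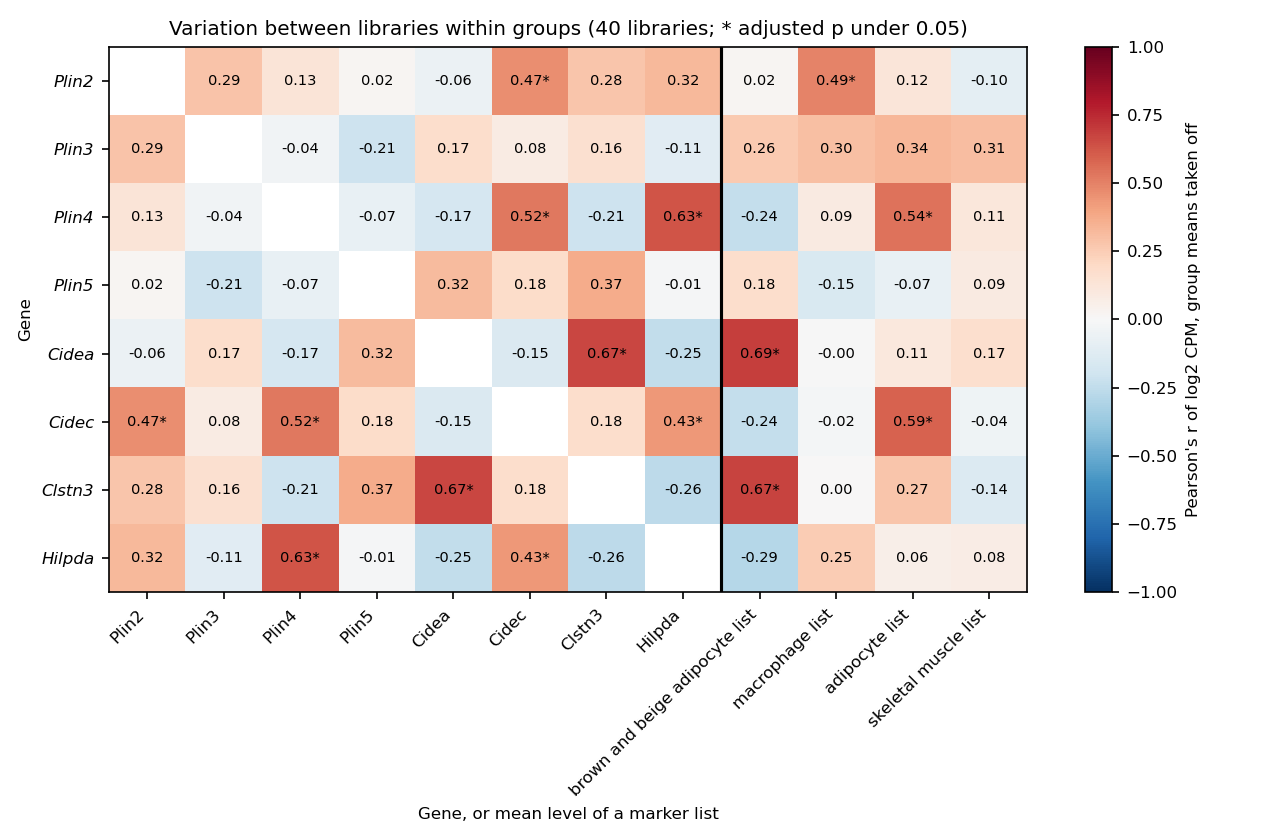
Pearson's r of log2 CPM over 40 libraries with group means taken off, between the 8 genes (rows) and the 8 genes or the mean log2 CPM of 4 marker lists (columns, right of the line); stars mark an adjusted permutation p under 0.05. Cidea and Clstn3 reach 0.67, and each reaches a like value with the brown and beige adipocyte list.

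The 8 genes were also set beside 4 marker lists that hold none of them. Cidea and Clstn3 went with the mean level of brown and beige markers (r = 0.692 and 0.673, rho = 0.633 and 0.678, adjusted permutation p = 0.0003 and 0.0002, r = 0.582 and 0.628 without the 2 libraries farthest in the list level). Cidec and Plin4 went with adipocyte markers (r = 0.593 and 0.541, rho = 0.505 and 0.476, adjusted permutation p = 0.00552 and 0.0156, 0.451 and 0.398 without the 2 farthest). ND library 5 is among the 2 farthest in each of the relations of Plin4 and Cidec given here, and it is low in both genes (613 CPM for Plin4). Plin2 went with macrophage markers (r = 0.494, rho = 0.451, adjusted permutation p = 0.0167, 0.464 without the 2 farthest). In the 5 groups taken singly, r with the brown and beige list ran from 0.008 to 0.91 for Cidea and from 0.46 to 0.93 for Clstn3. With adipocyte markers it ran from 0.17 to 0.85 for Cidec and from −0.16 to 0.96 for Plin4. For Plin2 and macrophage markers, a list that shares Lpl with the adipocyte list, it ran from 0.10 to 0.80. The brown and beige mean covers 13 markers, of which 9 had enough counts to be tested. No relation with skeletal muscle markers passed. With group means kept, adipocyte markers had r = 0.003 with Cidec and 0.229 with Plin4 and did not pass (adjusted permutation p = 0.984 and 0.257). The brown and beige list kept r = 0.704 with Cidea and 0.584 with Clstn3 (adjusted permutation p = 0.0002 and 0.0004). Macrophage markers kept r = 0.509 with Plin2 (adjusted permutation p = 0.00607). Cidea and Clstn3 then had r = 0.324 (adjusted permutation p = 0.137), and in the scatter of these 2 genes most HFD libraries stand off from the others.

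**Figure D4:**
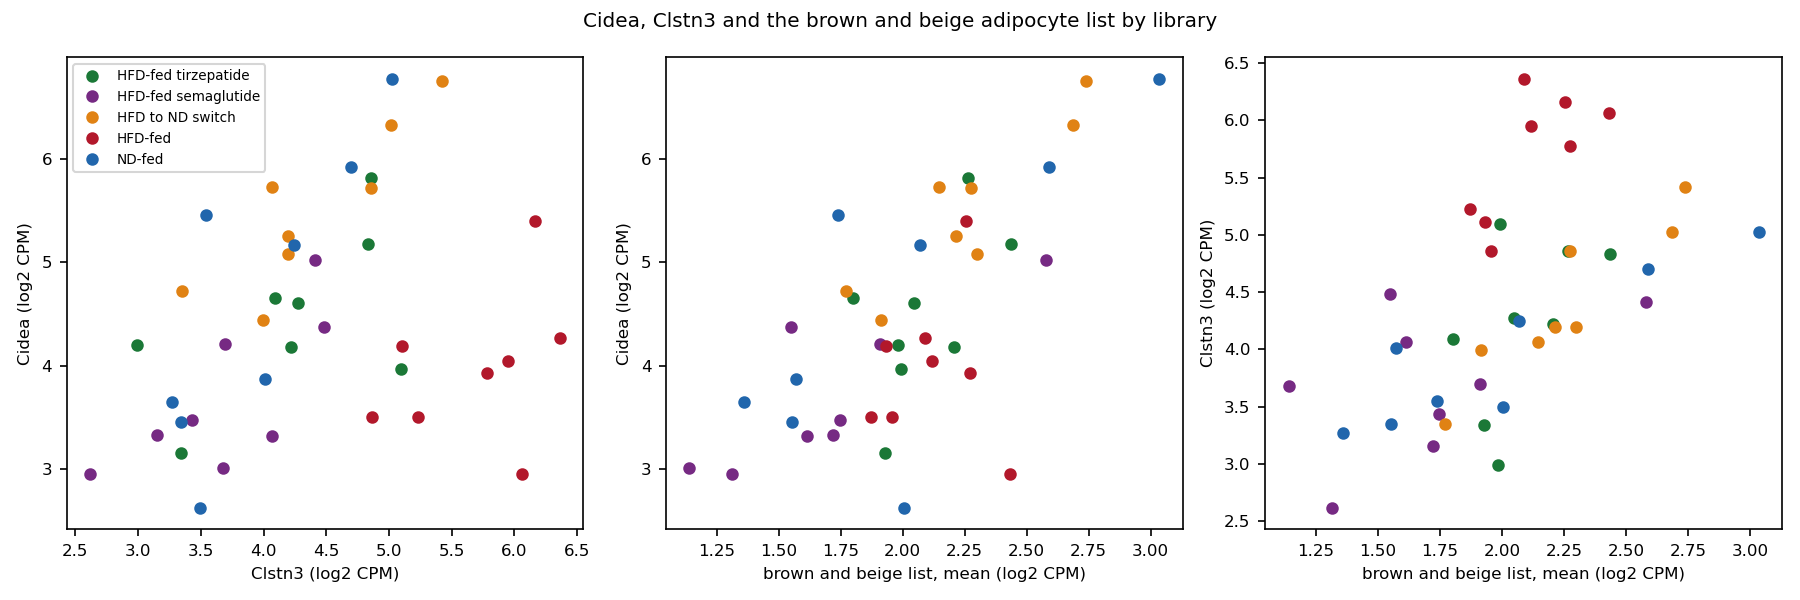
Log2 CPM of Cidea against Clstn3 (left), and of Cidea (middle) and Clstn3 (right) against the mean log2 CPM of the brown and beige adipocyte list, each point a library in the colour of its group. Most HFD libraries lie at higher Clstn3 for their Cidea level than those of the other groups.

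The genes whose profile over all 40 libraries came closest to each of the 8 were found by the mean absolute difference of centred log2 CPM among 12753 genes. For Cidea it was Cox8b, a respiratory chain subunit of brown fat and muscle, at 0.43 log2 units, where Cidea itself strayed 0.89 on average from its mean. For Cidec, Pam and Prnp were among the 3 closest, at 0.25 and 0.26. For Clstn3 the 3 closest were Arxes1, Adam12 and the fatty acid binding protein Fabp5, at 0.45 to 0.49, and for Hilpda they were Slc6a13, Prelp and Pdlim7, at 0.38 to 0.42. Plin2 came closest to the lysosomal protease gene Ctsd (0.23), Plin4 to Cdc42ep2 (0.24), Plin5 to Dusp3 (0.43) and Plin3 to Bsg (0.19). For Plin3 that distance is near its own mean deviation of 0.23, so its closest profile says little.

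Further droplet proteins were looked at as a list. This list and those below were also chosen with earlier results of these data known. Their counts are to be read beside the share of all genes tested that changed. That share was 4.5% on HFD against ND, and against HFD 20.5% with tirzepatide, 4.15% with semaglutide and 23.8% after the switch. Of 19 tested genes for further droplet proteins, 2 changed on HFD against ND: Cavin1, a coat protein of caveolae, by 1.04 ± 0.18 log2 units (edgeR adjusted p = 0.000119) and the lipid transfer protein gene Vps13c by −0.59 ± 0.17 (adjusted p = 0.0253). Their median log2 fold change was 0.13, against 0.92 for the 8 genes and −0.04 for all genes tested. Plin1, the main coat protein of white adipocytes, averaged 2011 ± 375 CPM with tirzepatide, 1883 ± 427 with semaglutide, 1717 ± 499.9 after the switch, 1916 ± 473 on HFD and 2130.0 ± 487 on ND, and passed in no comparison against HFD or ND. Against HFD 1 of the 19 was higher and 2 lower with each drug, and 3 were higher and 3 lower after the switch. Among those lower, Bscl2, the gene of seipin, which shapes new droplets, had log2 fold changes of −0.70 ± 0.17 with tirzepatide, −0.96 ± 0.17 with semaglutide and −0.76 ± 0.17 after the switch (adjusted p = 0.00217, 0.000273 and 0.000895).
Among 11 genes of lipolysis, G0s2, another inhibitor of Pnpla2, had a log2 fold change of −0.75 ± 0.34 on HFD against ND, which did not pass (edgeR adjusted p = 0.233), and was lower than HFD with tirzepatide (−1.04 ± 0.34, adjusted p = 0.0257) and after the switch (−0.93 ± 0.34, adjusted p = 0.0428). Its means were 210.2 CPM with tirzepatide, 307 with semaglutide, 229 after the switch, 435 on HFD and 730.5 on ND. Abhd5, the coactivator of Pnpla2 that Plin1 holds back, averaged 28.1 to 38.2 CPM over the groups and passed in no comparison against HFD or ND. On HFD against ND Mgll, which cleaves the last fatty acid, was higher (0.73 ± 0.17, adjusted p = 0.00419), the receptor gene Adrb3 was lower (−2.15 ± 0.35, adjusted p = 7.56e-05), and 9 of the 11 did not pass. Against HFD 2 of the 11 were higher and 3 lower with tirzepatide, 0 higher and 1 lower with semaglutide, and 3 higher and 2 lower after the switch.

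Several of the 8 genes are known targets of PPAR receptors. Of 18 other tested targets, 8 were higher on HFD than on ND and 10 did not pass (median log2 fold change 0.60). They included Angptl4, a lipase inhibitor, at 1.07 ± 0.22 (edgeR adjusted p = 0.00117) and Cpt1a, the gate of mitochondrial fatty acid oxidation, at 0.90 ± 0.16 (adjusted p = 0.000125). With tirzepatide against HFD 8 of the 18 were lower and 2 higher, with semaglutide 4 lower and 1 higher, and after the switch 4 lower and 2 higher.
Hypoxia targets form a second class to which Hilpda belongs. Of 13 others tested, 1 was higher on HFD than on ND, the stress gene Ddit4 at 1.25 ± 0.25 (adjusted p = 0.00107), and the median was −0.02. Against HFD 0 of the 13 were higher and 3 lower with tirzepatide, 0 higher and 2 lower with semaglutide, and 3 higher and 3 lower after the switch. Among those lower, Ddit4 had log2 fold changes of −1.37 ± 0.25 with tirzepatide, −1.25 ± 0.25 with semaglutide and −2.12 ± 0.26 after the switch (adjusted p = 0.000152, 0.00156 and 3.6e-07).
Among 13 genes of triglyceride synthesis 1 was higher on HFD, Acsl1, which activates fatty acids (1.34 ± 0.21, adjusted p = 2.71e-05), and 12 did not pass. Against HFD 4 of the 13 were lower and 2 higher with tirzepatide, 4 lower and 0 higher with semaglutide, and 4 lower and 1 higher after the switch. Among those lower in each group were Dgat2, which makes triglyceride, and Agpat2: Dgat2 at −1.48 ± 0.27, −1.09 ± 0.27 and −1.33 ± 0.27, and Agpat2 at −0.85 ± 0.24, −1.11 ± 0.24 and −0.78 ± 0.24 in that order of groups.

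**Figure D5:**
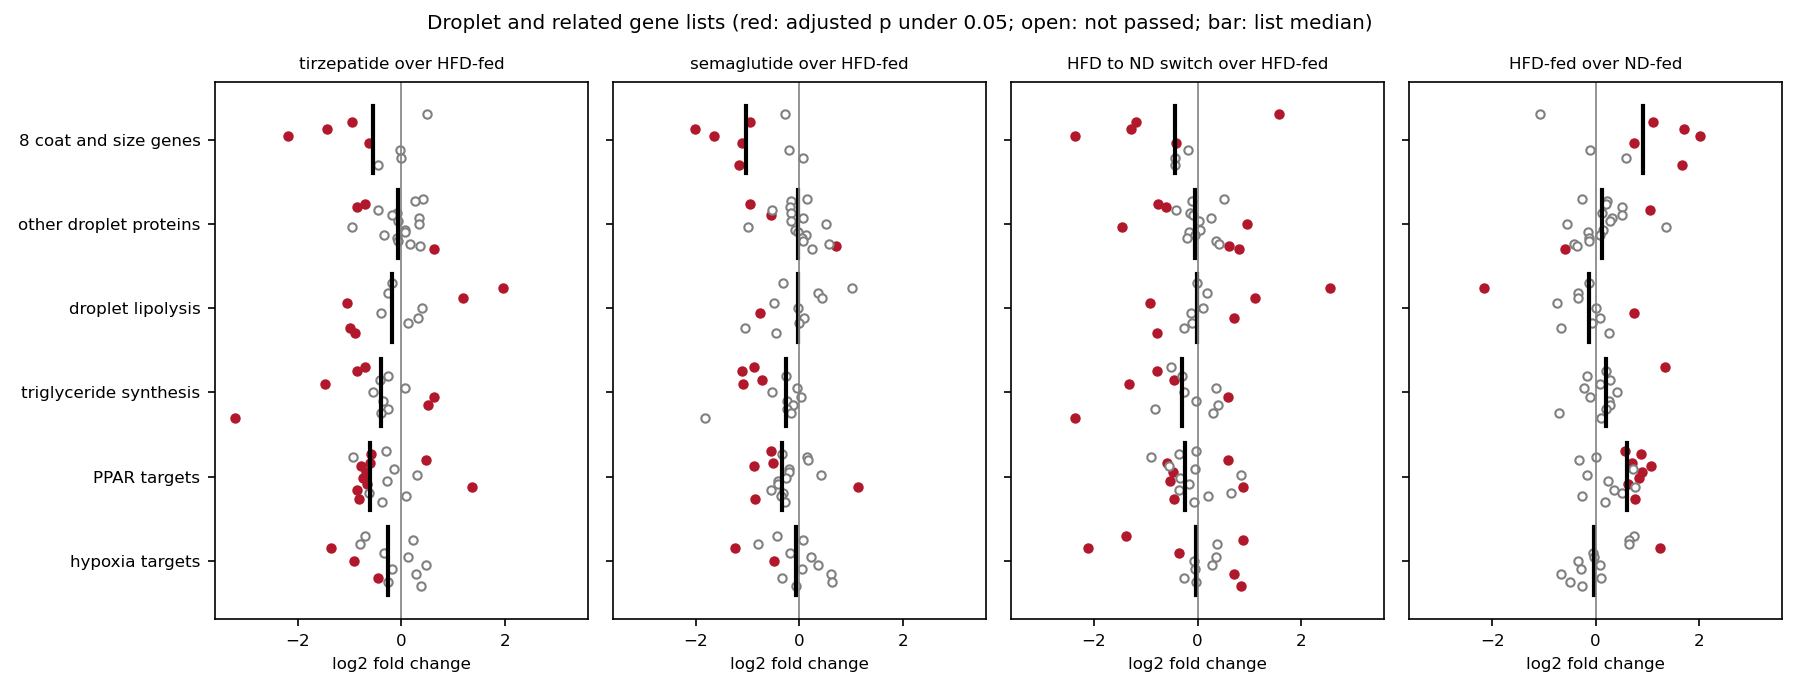
Log2 fold changes (x axes) of the genes in each list (rows), a point per tested gene, red where the edgeR adjusted p is under 0.05, with the list median as a bar. On HFD over ND the medians of the 8 genes (0.92) and of the PPAR targets (0.60) lie right of 0, and those of the other lists lie between −0.12 and 0.20.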

How the data were processed

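Gene counts of the 40 libraries were used as deposited by the authors. The labels' protocols name Nucleozol for extraction, Lexogen QuantSeq for the libraries and an Illumina HiSeq sequencer. The genome build was mm10 according to the submitters' processing notes, while aligner, counter and gene annotation were not given in the sources used here. A deposited normalized table was not used, and 16 of its 56 columns match no sample of the series. The 8 genes and the lists were chosen with earlier results of these data known. Counts were filtered with filterByExpr (15807 genes, 99.4% of counts), TMM-normalized and fitted with edgeR 4.0.16 (R 4.3.3, robust quasi-likelihood, 40 libraries, 1 mean per group, 10 comparisons, adjusted over all genes). The procedure was tested on simulated data. Log2 CPM used a prior count of 2. Relations were permuted in Python 3.11.15. Genes were named by rule: the 8, 7 fixed genes (Plin1, Pnpla2, G0s2, Abhd5, Angptl4, Ucp1 and Adipoq), up to 4 per list with the smallest adjusted p, and the 3 nearest profiles. Cideb, Hdgfl2, B430212C06Rik, Ebf2, Myh7 and Mb, and values of a named gene in further comparisons, were added after they were seen. Some genes that the rule selects are not reported here. Alternatives were DESeq2 1.42.0, its size factors, 2 other filters, only the groups compared, a replicate block, limma-voom (limma 3.58.1), a 1.5-fold null and each library left out, and, chosen after seeing the data, sets of libraries left out. No libraries of the same group were duplicates (lowest chi-square per degree of freedom 4.07 over 140 pairs within groups). Pairs between groups were not put to this check.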

Additional observations from a re-analysis of the deposited data

Results flagged for a closer look

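A library was set apart where its gap to the nearest other library of its group, on log2 CPM, was too large a share of the group's range by Dixon's test at its 95% critical value for 8 samples. Chance does this in about 1 in 20 groups, and it happened in 4 of the 40 sets of 1 gene in 1 group. Plin4 was low in HFD library 3, at 1244 CPM where the next library had 2334, and low in ND library 5, at 613 CPM where the next had 1417. Cidec was low in tirzepatide library 4, at 852 CPM against 1085 in the next. Hilpda was low in tirzepatide library 8, at 8.16 CPM against 19.5 in the next. HFD library 3 also held the lowest Hilpda level of its group (31.3 CPM), and ND library 5, which is high in B cell markers, the lowest Hilpda level of its group (12.3 CPM). The calls on Hilpda and Cidec against HFD held with each of these libraries left out.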

How the results depend on the processing

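Of 880 values of the 8 genes under the alternatives, 817 kept their direction and their side of the threshold, 33 lost the call, 14 gained one and 16 crossed 0, none of the last being called. The calls of Cidec, Clstn3 and Hilpda on HFD and against HFD held in every alternative and with each library left out, except for the 3 lost against a change of 1.5-fold. The number of genes called over the whole table moved more. Against a change of 1.5-fold it was 138 (712 in the main analysis) for HFD against ND, and against HFD 407 (3246) with tirzepatide, 46 (656) with semaglutide and 442 (3759) after the switch. Against ND it was 92 (1591), 70 (417) and 35 (2338) in the same order, and 20 (1584) for tirzepatide against semaglutide, 5 (63) for tirzepatide against the switch and 104 (2101) for semaglutide against the switch. With limma-voom it was 1289 for HFD against ND, 1263 for semaglutide against HFD, 2451 and 952 for tirzepatide and semaglutide against ND and 120 for tirzepatide against the switch, where DESeq2 gave 231 and the replicate block 99. With only the groups compared it was 999 for semaglutide against HFD, 1420 for the switch against ND, 2 for tirzepatide against the switch and 1219 for semaglutide against the switch, and with no filter 267 for semaglutide against ND. Without the muscle-high libraries it was 397 for HFD against ND, 1102 for tirzepatide against HFD, 221, 211 and 1114 for tirzepatide, semaglutide and the switch against ND, 224 and 1 for tirzepatide against semaglutide and the switch, and 1392 for semaglutide against the switch. Without the B cell-high libraries it was 415 for semaglutide against HFD, 981 and 127 for tirzepatide against semaglutide and the switch, and 1252 for semaglutide against the switch. Without the 3 switch libraries that stood apart it was 1153 and 120 for the switch against HFD and ND, and 351 and 280 for tirzepatide and semaglutide against the switch. The cause was not tested.

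Of the 8 genes, against a change of 1.5-fold 4 were called on HFD against ND, 2, 3 and 2 with tirzepatide, semaglutide and the switch against HFD, 0 each with tirzepatide and the switch against ND, 0 between the drugs and 0 for semaglutide against the switch. For semaglutide against ND 1 was called with DESeq2, with limma-voom and without the B cell-high libraries. For tirzepatide against ND 2 were called with DESeq2 and with limma-voom and 0 without the muscle-high libraries. For the switch against ND 2 were called without the muscle-high libraries and 0 without the 3 switch libraries, where 3 were called against HFD and 1 for semaglutide against the switch. Between the drugs 2 were called with DESeq2 and with only the groups compared, and 0 with no filter or without the muscle-high libraries. Values that crossed 0 were Plin3 at 0.033 for tirzepatide against HFD and 0.0036 for semaglutide against the switch (limma-voom), 0.062 and −0.089 for the switch against HFD and tirzepatide against the switch (without the 3 switch libraries), and 0.028 and 0.016 for semaglutide against the switch (without the muscle-high and the B cell-high libraries). The same held for Clstn3 for semaglutide against ND at 0.019 and Cidec for the switch against ND at 0.088 (without the muscle-high libraries), Cidec for the switch against ND at 0.051 without the 3 switch libraries, Plin4 for the switch against ND at −0.021 and Plin5 for tirzepatide against the switch at 0.0054 (limma-voom), and Plin5 for tirzepatide against the switch at 0.34 without the 3 switch libraries. Cidec between the drugs was 0.0033 with DESeq2 and with its size factors, 0.049 without the muscle-high libraries and 0.015 with the replicate block.

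With 1 library left out at a time, genes called ran from 437 to 774 for semaglutide against HFD, 1048 to 1793, 258 to 860 and 1323 to 3077 for tirzepatide, semaglutide and the switch against ND, 37 to 359 for tirzepatide against the switch and 1363 to 2784 for semaglutide against the switch, and those of the 8 from 1 to 2, 0 to 1 and 1 to 2 against ND and from 0 to 1 between the drugs. Values that crossed 0 ran from −0.14 to 0.076 (Plin4) and −0.13 to 0.018 (Plin3) for tirzepatide against HFD, −0.028 to 0.15 (Plin4) and −0.56 to 0.054 (Cidea) for semaglutide against HFD, −0.0053 to 0.22 (Plin4) and −0.16 to 0.0044 (Cidec) for the switch against ND, −0.21 to 0.0047 (Plin4) and −0.091 to 0.094 (Cidec) between the drugs, −0.14 to 0.079 (Plin5) and −0.31 to 0.043 (Clstn3) for tirzepatide against the switch, and −0.11 to 0.097 (Plin3) for semaglutide against the switch.

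Equal replicate numbers were not taken as pairs in the main fit. Over 80 same-numbered pairs the deviations from group means had correlations of −0.349 to 0.259 (median 0.0314, 18 above 0.1). The median of different-numbered pairs was −0.0045. For 11 of 40 libraries the closest library of another group had the same number, so a weak pairing is not excluded. A replicate block gave 3487 genes called (3246 in the main analysis) with tirzepatide and 635 (656) with semaglutide, each against HFD. With the replicate block the Plin5 value for semaglutide against the switch was −0.75 and lost its call (adjusted p = 0.0555). Depth limits the low genes: the lowest count of the 8 genes in a library was 5 (Plin5 on ND).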
